A study of Mus musculus with 16 samples.

Results

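Most of the mouse genome carries the same CpG methylation in every individual of an inbred strain, so that stretches whose level differs from library to library within a cell type stand out. In 16 methylomes of splenic B and T cells, 932,533 non-overlapping 1 kb tiles of chromosomes 1 to 19 (mm10, counted from position 1) had 8 or more CpGs and 30 or more calls in each library. Of these, 151 tiles (0.0162%) had a standard deviation (SD) of 12 percentage points or more over the 8 B cell libraries and also over the 8 T cell libraries, and are described here as the doubly variable tiles. The tiles were selected on this spread, so that the spread itself is given as a description and was not tested. On its own, the limit was passed by 1689 tiles in B cells and by 4543 tiles in T cells. A call is 1 read reporting 1 CpG, and the level of a tile is the percentage of its calls that were methylated.

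The mice were C57BL/6J, 6 to 8 weeks old, and cells were taken from the spleen by magnetic sorting. The B cells were resting B cells (CD43-) and the T cells were naive CD4+ CD62L+ cells. For each of the 2 cell types, the 2 sexes and the 2 assays there were 2 libraries, numbered 1 to 16 across the series, which gave 8 groups. The series describes its material as pooled from male and female animals and names no mouse, so that p-values measure only the spread between these libraries, and a library can stand for more than 1 animal. The assays were whole genome bisulphite sequencing (BS) and oxidative bisulphite sequencing (oxBS), with both arms split from the same adapter-ligated DNA. No mutation, transgene or treatment distinguished the groups.

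In mammals the methyl group of a CpG is placed by DNA methyltransferases and can be oxidised by TET enzymes to 5-hydroxymethylcytosine (5hmC). BS reads both 5-methylcytosine and 5hmC as methylated, whereas in oxBS the 5hmC is oxidised before conversion and reads as unmethylated, so that BS minus oxBS is the usual estimate of 5hmC. Intracisternal A particles (IAPs) are young endogenous retroviruses of the mouse, most of which are silenced by methylation of their long terminal repeats (LTRs). At a small set of IAPs the level differs between genetically identical mice while it is shared by the tissues of 1 mouse; the study calls these constitutively variable elements cVM-IAPs, and its list of elements also holds tissue-specific variable IAPs (tsVM-IAPs), candidate IAPs that proved not to vary, and endogenous retroviruses (ERVs) of other families, both variable ones and ones that were assayed and did not pass the study's threshold.

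The sequences below show doubly variable tiles that share sequence with others of the set and tiles that do not. Of the 151 tiles, 131 had no other place in the reference at 90% identity over 300 bp. All are from the + strand of the mm10 reference, 5′ to 3′, with CpGs in capitals. The first 3 are CpG-rich stretches of tiles at cVM-IAPs near or in Rims2 (chr15:39173360-39173509), Rnf157 (chr11:116389762-116389911) and Marveld2 (chr13:100594075-100594224), the next 2 share a different repeat, in an intron of Cep85 (chr4:134160010-134160159) and near Hist1h4m (chr13:21813202-21813351), and the last 3 come from tiles with few or no copies elsewhere, near Ccr7 (chr11:99167590-99167739), in Sbk1 (chr7:126284346-126284495) and in introns of Gpr183 and Ubac2 (chr14:121959372-121959521).
IAP-Rims2: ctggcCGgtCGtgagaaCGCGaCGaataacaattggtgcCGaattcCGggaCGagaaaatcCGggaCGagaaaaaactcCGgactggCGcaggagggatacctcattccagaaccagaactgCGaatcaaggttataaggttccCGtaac
IAP-Rnf157: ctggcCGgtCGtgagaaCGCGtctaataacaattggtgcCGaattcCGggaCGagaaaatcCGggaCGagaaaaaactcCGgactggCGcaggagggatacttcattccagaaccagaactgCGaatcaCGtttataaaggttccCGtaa
IAP-Marveld2: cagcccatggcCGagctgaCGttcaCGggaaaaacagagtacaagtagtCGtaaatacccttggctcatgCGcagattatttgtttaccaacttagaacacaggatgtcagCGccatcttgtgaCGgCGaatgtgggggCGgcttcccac
ERV-Cep85: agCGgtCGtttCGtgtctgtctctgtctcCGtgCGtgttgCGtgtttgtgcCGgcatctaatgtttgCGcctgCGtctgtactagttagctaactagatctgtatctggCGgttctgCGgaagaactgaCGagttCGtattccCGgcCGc
Hist1h4m tile: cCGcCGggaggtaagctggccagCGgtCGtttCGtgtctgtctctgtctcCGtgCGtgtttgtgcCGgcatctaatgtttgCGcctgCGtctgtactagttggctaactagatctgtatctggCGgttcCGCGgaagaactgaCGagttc
Ccr7 tile: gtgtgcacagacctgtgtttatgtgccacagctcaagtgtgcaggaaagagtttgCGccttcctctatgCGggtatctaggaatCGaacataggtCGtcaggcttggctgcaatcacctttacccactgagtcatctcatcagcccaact
Sbk1 tile: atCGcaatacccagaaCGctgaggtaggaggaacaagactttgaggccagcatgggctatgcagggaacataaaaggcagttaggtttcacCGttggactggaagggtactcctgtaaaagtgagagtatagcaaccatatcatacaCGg
Gpr183 tile: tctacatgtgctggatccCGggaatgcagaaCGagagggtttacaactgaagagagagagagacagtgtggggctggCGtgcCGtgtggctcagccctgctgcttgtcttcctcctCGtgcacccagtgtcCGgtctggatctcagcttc
Over their whole length the Rims2 and Rnf157 tiles aligned for 345 bp at 93.6% identity. The stretches from Ccr7, Sbk1 and Gpr183 held 4 to 6 CpGs in 150 bp, compared with 14 in each of the Rims2 and Rnf157 stretches.

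The libraries held 123,693,203 to 171,130,063 calls, or 5.83 to 8.07 calls per autosomal CpG, and 78.4% to 81.5% of autosomal calls were methylated. Calls on the Y chromosome matched the labelled sex in all 16 libraries. Around the starts of 8 B cell marker genes the mean level was 14.3% to 16.9% in B cell libraries 9, 10, 1 and 2, 9.48% to 11.1% in B cell libraries 11, 12, 3 and 4, and 50.9% to 56.9% in T cell libraries. Around the starts of 10 T cell marker genes it was 58.4% to 61.1% in B and 12.2% to 18.3% in T cell libraries, with 9 of the 10 genes lower in T cells. Among the T cell libraries it was 15.8% to 18.3% in BS and 12.2% to 12.5% in oxBS, without overlap. The BS libraries male B 1 and male B 4 listed only 242 and 243 positions on unplaced contigs, where the other libraries listed 16,429 to 17,017, and no contig entered the tiles. Libraries of the same group held different calls (mean chi-square per tile 1.28 to 1.41), so that none was a repeat deposit. As calls on the same read are not independent, these values do not show a difference beyond sampling noise. In B cells the order of the libraries did not follow the labelled assays, as described with the B cell values. Every B cell value split by assay holds only for the labels as given, which were not tested.

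The median SD of the doubly variable tiles was 13.1 points in B cells (range 12 to 28.9) and 13.8 points in T cells (range 12 to 35.6), while the median over all eligible tiles was 2.9 and 2.96 points. Reads are sampled, so part of any spread is counting noise. With independent calls, binomial sampling at the depth of each library would give an SD 2.35 times smaller than that observed in B cells (median; range 1.54 to 8.2) and 2.47 times smaller in T cells (1.73 to 10.2), against ratios of 1.04 and 1.08 over all eligible tiles. Neighbouring CpGs on the same read are not independent. When all calls within about a read length were taken to move together the median ratios fell to 1.48 and 1.61, and with 300 bp to 1.26 and 1.33. The lowest ratios were then below 1 in both cell types, that is, for some tiles a spread of this size is within what few long, concordant fragments would give.

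**Figure D1:**
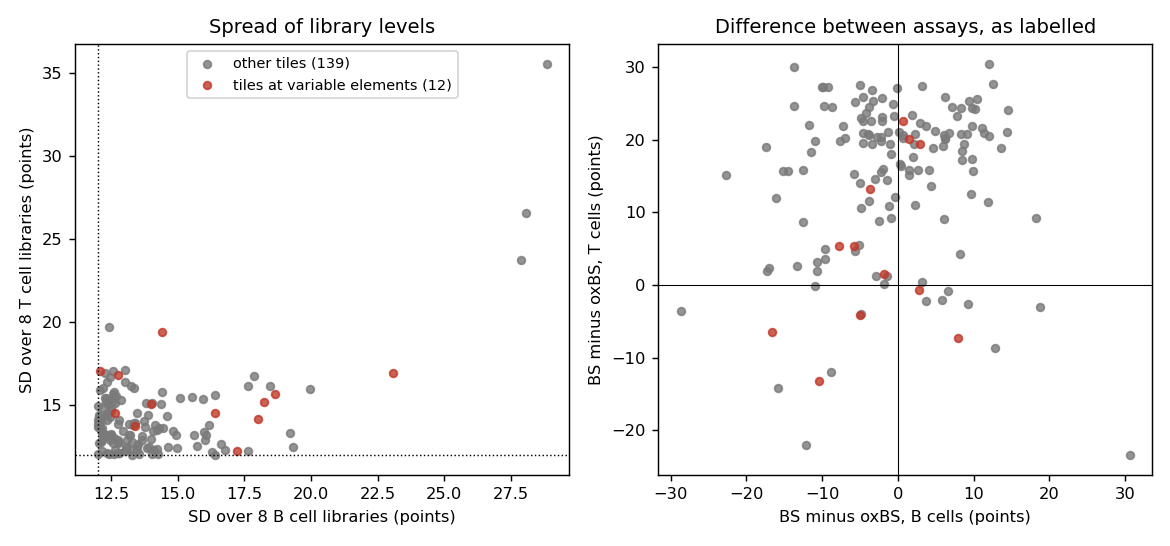
Left, SD over the 8 libraries in B cells (x) and in T cells (y) for each of the 151 tiles, in percentage points, with dotted lines at the limit of 12 points; right, BS minus oxBS as labelled in B cells (x) and in T cells (y), in points. Red points are the 12 tiles at elements of the study's list and grey points the other 139. Most tiles lie close to the limit, 3 grey points have an SD over 20 points in both cell types, and on the right 133 of the 151 points, 7 of the 12 red ones among them, lie above 0 in T cells, whereas in B cells 67 of the 151 do.

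The doubly variable tiles were of intermediate methylation, which the rule itself favours. A level near either end of the scale can hardly reach the SD limit, and counting noise is largest at intermediate levels and few calls. The levels and depths given next are thus description. The mean level was 55.9% in B cells and 50.4% in T cells (medians over tiles), compared with 91.9% and 91.3% over all eligible tiles, and 140 of the 151 (92.7%) lay between 30% and 70%, where only 7.91% of eligible tiles lie. They had as many CpGs as other tiles (median 12 in each) but fewer calls, with a median of 45 in the shallowest library compared with 61, and 14 of the 151 (9.27%) had less than 50% of the usual depth per CpG, compared with 0.589% of eligible tiles. They lay in introns in 75 tiles (49.7%, compared with 38.7% of eligible tiles), in exons in 23 tiles (15.2%, compared with 19.2%), between genes in 49 (32.5%, compared with 38.5%) and at a gene start in 4 (2.65%, compared with 3.47%). Chromosome 11 held the most, with 18 (11.9%, compared with 6.19% of eligible tiles).

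At the limit of the rule, the 3 tiles just inside it were chr1:86530001-86531000 in Ptma (SD 16.406 in B and 12.003 in T cells), chr11:20200001-20201000 near Rab1a (12.003 and 13.674) and chr16:36039001-36040000 near Wdr5b (13.291 and 12.008). Of the 3 tiles just outside, chr1:157015001-157016000 had SDs of 13.831 and 11.998, chr9:75313001-75314000 had 13.182 and 11.980, and chr4:83327001-83328000 had 16.970 in B cells and a T cell SD short of 12 by less than the third decimal. No gap in the values separates the tiles on either side.

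In T cells most of the spread followed the assay. Of the total sum of squares over the 8 T cell libraries, the difference between BS and oxBS took a median of 55.5% in the doubly variable tiles, compared with 12.1% over all eligible tiles, and it took 50% or more in 84 of the 151. BS was higher than oxBS in 133 tiles, by a median over all 151 of 19 points (range -23.4 to 30.5), where the median of eligible tiles was 0.909 points. Every T cell BS library lay above every oxBS library in 66 of the 151 (43.7%), compared with 7.7% of all eligible tiles, and the opposite order was seen in 0 of the 151, compared with 0.769% of eligible tiles. This assay difference is part of the T cell SD that chose the tiles, so these shares carry no test. Of the 66 tiles, 43 were intronic (65.2%, compared with 49% of all eligible tiles in which every T cell BS library lay above every oxBS library) and 0 held a gene start (compared with 3.04% of those tiles). Their T cell level was 61.3% in BS and 40% in oxBS libraries (medians over tiles).

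The examples of these 66 tiles given next were picked after their values had been seen, for genes with more than 1 tile or a known role in lymphocytes. Klf13, a zinc finger transcription factor, had 3 tiles. In the first, at chr7:63908001-63909000, the T cell BS libraries read 60, 70, 72.4 and 67.7% and the oxBS libraries 24.6, 37, 50.6 and 49.1%. Foxo1, a transcription factor of naive T cell homeostasis, had 2 intronic tiles; at chr3:52333001-52334000 the BS libraries read 77.6, 66.2, 71.4 and 73.2% and the oxBS libraries 46.2, 41.2, 49.6 and 47.7%. The assays did not overlap in either tile, and at Foxo1 the gap between them was wider than the spread of the 4 oxBS libraries.

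Tgfbr2, which encodes the type II receptor of TGF-beta, also had 2 intronic tiles, 1 of them at chr9:116139001-116140000, where BS levels were 44, 56.4, 39.3 and 45.5% and oxBS levels 23.7, 15.1, 18.1 and 19.6%. Between genes, 378 bp from Supt4a, which encodes a subunit of a transcription elongation factor, the tile at chr11:87744001-87745000 had the largest T cell difference of the set, 30.5 points, with BS at 55, 58.5, 58.5 and 52.9% and oxBS at 23.4, 32.9, 22 and 24.7%. The T cell differences were 27.2 points in the tile in St6gal1, a sialyltransferase gene, 26.9 points in Map3k1, a kinase gene of the MAP kinase cascade, 24.4 points in Cd47, which encodes a cell surface ligand of phagocyte receptors, and 21.9 points in Foxp1, a gene for a forkhead factor. In B cells BS minus oxBS, as labelled, was 12.1 points at the Supt4a tile and -10 points at the St6gal1 tile. At the first Tgfbr2 tile it was -0.0717 points, with no common direction among these tiles, but the B cell labels were not tested. At the first Tgfbr2 tile B cell libraries 9, 10, 1 and 2 read 63.83, 61.97, 50.57 and 48.65%. Libraries 11, 12, 3 and 4 read 39.68, 37.29, 32.05 and 34.09%. At the Supt4a and St6gal1 tiles these 2 sets of libraries overlapped.

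Il18r1, which encodes a chain of the interleukin 18 receptor, had 2 tiles 3 kb apart that differed. In the exonic tile at chr1:40466001-40467000 the T cell BS libraries read 59.3, 71.8, 59.5 and 54.7% and the oxBS libraries 38.5, 39.3, 44.4 and 39.6%, without overlap, and in the intronic tile at chr1:40469001-40470000 they read 37.7, 43.8, 68.8 and 37.3% and 36.7, 45.5, 28.4 and 20.7%, with overlap. A tile in an exon of Ikzf3, a zinc finger factor of B cell differentiation, differed by 18.8 points in T cells, also with overlap. The lowest values of BS minus oxBS in T cells were at the Hist1h4m tile (-23.4 points), which is described with the repeats, and at a tile 498,514 bp from Lipi (-22 points).

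Over all 151 tiles BS minus oxBS in B cells had a median of -1.26 points, and BS was higher in 67. All 4 BS libraries lay above all 4 oxBS libraries in 1 of the 151 (0.662%), compared with 1.28% of eligible tiles, and below them in 2 (1.32%), compared with 1.42%. With the assays as labelled, what took most of the B cell spread was the difference between the 2 libraries of the same sex and assay, with a median of 74.9% of the sum of squares (59.6% over all eligible tiles) and 50% or more in 122 tiles. In 73 tiles both descriptions held, the T cell spread following the assay and the B cell spread lying within sex and assay. These B cell values hold only for the assays as labelled, and the labels were not tested. Sex took 50% or more in 8 tiles in B cells, 3 in T cells and 1 in both.

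The B cell spread was shared between tiles. Over the 139 doubly variable tiles away from the elements of the study's list, the mean deviation from the B cell mean of each tile was 4.6 points in female BS 10 and -4.08 in female BS 12, 6.64 in female oxBS 9 and -5.24 in female oxBS 11. In males it was 4.97 in BS 1 and -6.59 in BS 4, 5.26 in oxBS 2 and -5.55 in oxBS 3. Each group of 2 libraries thus held 1 library above and 1 below the mean. Libraries 9, 10, 1 and 2 were above in 68.3% to 75.5% of tiles and libraries 11, 12, 3 and 4 in 25.9% to 31.7%. In T cells, by contrast, the 4 BS libraries deviated by 8.35, 9.15, 7.39 and 6.33 points and the 4 oxBS libraries by -6.28, -8.02, -8.08 and -8.84 points.

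The order of the B cell libraries was also present where the rule had not chosen it. In 8851 tiles outside the set, taken on T cells alone (every BS above every oxBS library, by at least 15 points in the means), the B cell deviations were 1.69 in female BS 10, -1.76 in female BS 12, 1.8 in female oxBS 9, -1.94 in female oxBS 11, 1.78 in male BS 1, -1.81 in male BS 4, 1.88 in male oxBS 2 and -1.63 in male oxBS 3. These are the same signs as in the doubly variable tiles, and the median BS minus oxBS difference as labelled was 0.0033 points. Over the 2703 tiles with the opposite order in T cells, by at least 5 points, the B cell deviations lay between -0.308 and 0.297 points. The same signs were also present, at a smaller size, where T cells had no assay difference to speak of. Over 19,626 tiles at 30% to 70% with a T cell difference under 2 points, libraries 9, 10, 1 and 2 deviated by 0.735, 0.687, 0.209 and 0.799 points and libraries 11, 12, 3 and 4 by -0.663, -0.493, -0.285 and -0.989 points. Over all 932,533 eligible tiles the first 4 deviated by 0.17 to 0.339 points and the others by -0.392 to -0.204 points. At the starts of the B cell marker genes libraries 9, 10, 1 and 2 were likewise the higher ones, at 14.3, 15.8, 16.9 and 16.9%. Libraries 11, 12, 3 and 4 were the lower, at 9.48, 10.3, 10.5 and 11.1%. At the T cell marker genes the B cell libraries lay between 58.4% and 61.1% in another order. Over the 8851 tiles, the deviations of female BS 10 had a correlation of -0.254 with those of female BS 12, of its own group, and of 0.0399 with those of female oxBS 9, and male BS 1 had one of -0.227 with male BS 4 and of 0.0149 with male oxBS 2. Deviations from a common mean are negatively correlated by construction, and the tiles share libraries and depth. The B cell order crosses the labelled assays and runs with the library numbers in blocks of 2. As labelled, each block held 1 BS and 1 oxBS library, and no label says whether they came from the same DNA. An exchange of the assay labels of 1 BS and 1 oxBS library in each sex (female 12 and 9, male 4 and 2) would give the same order, and the share within sex and assay would then be a difference between assays. Male B 1 and male B 4, both labelled BS, are the libraries with few contig positions. The study itself did not separate the assays in its screen, giving very low hydroxymethylation as its reason. Neither such an exchange nor a difference between these blocks was tested. The part of the B cell marker levels in this order was not tested either. The groups come from the labels alone, so BS and oxBS of B cells are used here as labelled and no value was computed with the labels turned.

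**Figure D2:**
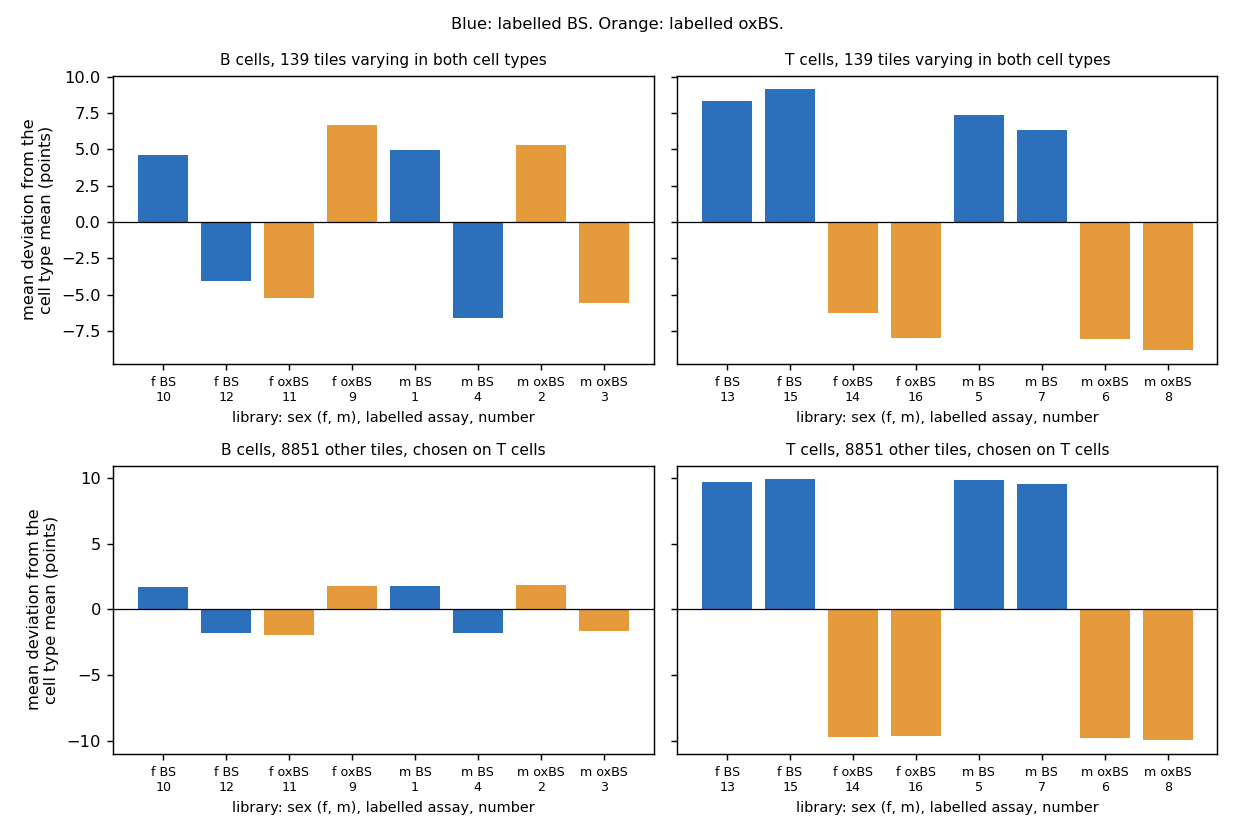
Mean deviation (points) of each library from the mean of its cell type, in B cells (left) and T cells (right), over the 139 doubly variable tiles away from listed elements (top) and over 8851 other tiles chosen on T cells alone (bottom). Blue bars are libraries labelled BS and orange bars libraries labelled oxBS; in T cells the bars sort by assay, and in B cells each assay has 2 libraries above and 2 below 0.

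Elements of the study's list made up a small part of the set. Of the 91 eligible tiles that touch a cVM-IAP, 9 (9.89%) were doubly variable, and of the 50 at listed ERVs of other families 3 (6%), compared with 0.0162% of all eligible tiles. The 9 tiles lay at 9 of the 47 autosomal cVM-IAPs, namely those of Rims2, Rnf157, Mbnl1, Eps8l1, Marveld2, Bmf, Slc15a2, Tfec and Rsg1. None of the 41 tiles at tsVM-IAPs, the 62 at candidates that did not vary, the 19 at IAPs listed for their sequence or the 22 at other elements was doubly variable. The study took its candidates from a screen of B and T cell methylomes of this origin. It then sorted these candidates into classes by bisulphite pyrosequencing of ear, B cells and other tissues from independent samples. As the screen chose the candidates, the overlap is not independent evidence that they vary. Of the ERVs, Cep85 is one that the study counts as variable, while ERV-12 is listed by number only and is one that it does not. The other 139 of the 151 tiles touched no listed element.

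The tile at IAP-Rims2 (chr15:39173001-39174000, 37 CpGs, 24,261 bp from Rims2, a gene of synaptic vesicle release) had B cell levels of 41.3% to 100% (median 77.4%) and T cell levels of 53% to 99% (median 85.5%). Female B BS libraries read 73.2 and 100% and female T BS libraries 99 and 69.9%, so that libraries of the same sex and assay differed widely. At IAP-Rnf157 (chr11:116389001-116390000), in an intron of a ubiquitin ligase gene, the B cell range was 32.4% to 83.1% and the T cell range 14.6% to 55.6%. At IAP-Marveld2 (chr13:100594001-100595000), 957 bp from the gene of the tight junction protein tricellulin, B cell levels were 23.5% to 65.8% and T cell levels 14.6% to 71.8%. In these tiles BS and oxBS libraries overlapped in both cell types.

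IAP-Eps8l1 (chr7:4460001-4461000) is the only cVM-IAP tile of the set that held a gene start, that of Eps8l1 at position 4460674 on the + strand, a gene of the Eps8 family of actin regulators. Its B cell levels were 48.1, 52.5, 73.8 and 67.5% in females and 81.2, 91.8, 88 and 86% in males, without overlap between the sexes. Its T cell levels were 75.5, 55.1, 65.1 and 70.7% in females and 30.2, 62.2, 73.6 and 66.4% in males, where the sexes overlapped. Its depth per CpG was 0.333 of the usual, and 50 to 154 calls stood behind each library's level.

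ERV-Cep85 contributed 2 tiles, in an intron of the gene of a centrosomal protein. In the tile at chr4:134162001-134163000 female B cell libraries read 73.4 and 53.3% in BS and 75 and 47.7% in oxBS, and male B cell libraries 18.1, 24.7, 36.5 and 17.5%. Female T cell libraries read 70.3, 40.2, 79.4 and 40.7% and male T cell libraries 35.1, 57.8, 40.2 and 36.8%. All 4 female B cell libraries were above all 4 male ones, whereas in T cells the sexes overlapped. In females the higher BS library of each cell type came with a higher oxBS library of an adjacent number, 10 and 11 in B cells and 13 and 14 in T cells. In the other tile, at chr4:134160001-134161000, the sexes overlapped in both cell types. Its B cell levels were 31.5% to 81.9% in females and 21.4% to 41% in males.

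**Figure D3:**
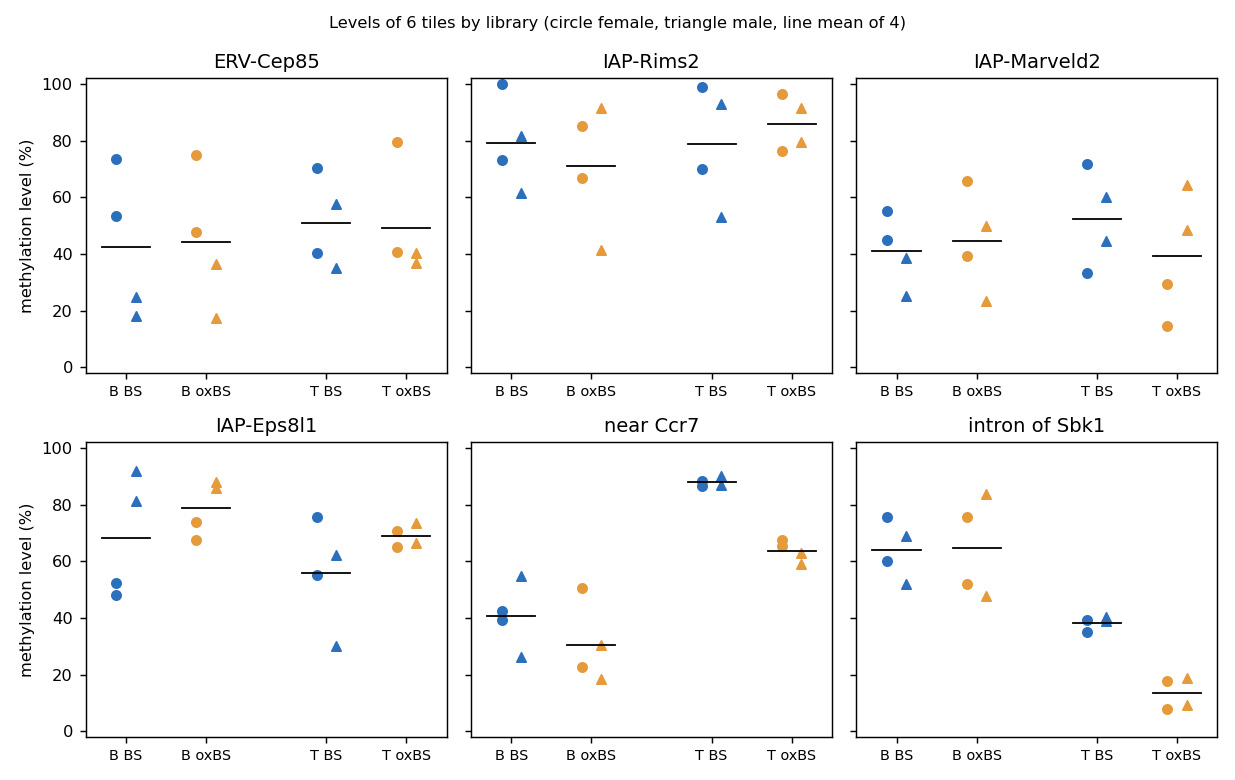
Methylation level (%) of each of the 16 libraries at 6 tiles, by cell type and assay as labelled; circles are female and triangles male libraries, blue BS and orange oxBS, and lines mark means of 4 libraries. At the 4 listed elements libraries of 1 assay are far apart in both cell types, and near Ccr7 and in Sbk1 the T cell libraries separate by assay while the B cell libraries are spread.

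For the 82 cVM-IAP tiles outside the set, which the rule did not use, the difference between the 2 libraries of a group was correlated across tiles with that of the other assay of the same sex and cell type. The labels tie no BS library to an oxBS library, so that the sign depends on the order of subtraction and only says which libraries go together. Female T cell BS (13 minus 15) and oxBS (14 minus 16) had r = 0.376, male T cell BS (5 minus 7) and oxBS (6 minus 8) 0.226, female B cell BS (10 minus 12) and oxBS (11 minus 9) 0.248, and male B cell BS (1 minus 4) and oxBS (2 minus 3) -0.321. In all 4 cases the correlation was thus weak, and by its sign, in male B cells, library 1 went with 3 and 4 with 2. Between groups of different cell types of the same sex the values over these tiles were of similar size. They lay between -0.259 (female B oxBS with female T oxBS) and 0.213 (female B BS with female T oxBS). The smaller values within a cell type hardly stand out from these. At the 12 listed tiles the corresponding values were 0.755, 0.261, 0.249 and -0.643, but these tiles were selected on the spread between libraries and hold the 2 ERV-Cep85 tiles, so they are no separate support. Over the 139 tiles away from listed elements the values were 0.0866, 0.128, -0.103 and 0.0587. The tiles share libraries and, for the IAPs, sequence, and no p is given.

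Most of the cVM-IAP tiles shared sequence with each other. An IAP LTR match (at least 150 bp at 80% identity to the LTRs of the study's IAPs) was present in 8 of the 151 tiles (5.3%), compared with 0.852% of eligible tiles, and all 8 were cVM-IAP tiles, each of which aligned with at least 1 of the others. The IAP-Rims2 and IAP-Eps8l1 tiles aligned over 703 bp at 97.7% identity in opposite orientation, and IAP-Marveld2 and IAP-Rims2 over 223 bp at 100%. Short sequences listed as typical of cVM-IAPs occurred in 9 tiles (5.96%), compared with 0.049% of eligible tiles. Neither share is separate support. The LTRs were those of listed IAPs, so that a tile can match its own element. The short sequences were picked by the study for their enrichment in cVM-IAPs. The most frequent of the short sequences, shown here because it was present in 6 of the 9, had 28 bp and no CpG.
shared IAP sequence: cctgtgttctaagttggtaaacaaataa
It was found on either strand in 119 eligible tiles in all, so that most tiles with this sequence were not doubly variable. The 12 listed tiles had a median of 37.5 CpGs, 0.67 of the usual depth per CpG and 50.6% of their bases in repeats, compared with 12 CpGs, a depth of 0.879 and 24.5% in the other 139 tiles.

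Several of the widest spreads were in tiles with repeats other than IAPs. The tile near Hist1h4m (chr13:21813001-21814000), 854 bp from a histone H4 gene and with 65 CpGs, had a B cell range of 0% to 80.4% (median 20.4%, SD 28) and a T cell range of 26.7% to 95.6% (median 39.2%, SD 26.6). It had 0.16 of the usual depth per CpG, 32 to 147 calls in a library, and 56 other places in the reference at 95% identity over 300 bp. It aligned with the ERV-Cep85 tile at chr4:134160001-134161000 over 805 bp at 94% identity. With a tile at the start of the non-coding transcript Gm43305 (chr14:54297001-54298000) it aligned over 464 bp at 92.5%, in opposite orientation. Of these 3 tiles only that of Cep85 is in the study's list. The Gm43305 tile lay between 29.4% and 83.8% in B and between 25.3% and 73.5% in T cells.

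The tile in an intron of Erbb4, a growth factor receptor gene (chr1:68625001-68626000), aligned with an intergenic tile over 947 bp at 87.3% identity. That tile, at chr2:47669001-47670000, lay 1144109 bp from Acvr2a, the nearest protein-coding gene. The Erbb4 tile lay wholly in repeats, at 0.351 of the usual depth, and its levels were 18.5% to 71.8% in B and 17.5% to 59.6% in T cells. In an intron of Cox16, a gene of mitochondrial complex assembly, the tile at chr12:81483001-81484000 ran from 14.7% to 92.6% in B and from 8.96% to 79.6% in T cells, with an alternating CG repeat of many CpGs in a short stretch and 0.492 of the usual depth. Over the whole set 131 of the 151 tiles had no other place in the reference at 90% identity over 300 bp, 16 had at least 1 at 95% and 10 had 10 or more. Of the 14 tiles with less than 50% of the usual depth, 8 had another place at 95% and 3 were at listed elements. Reads that fit several places are removed by the mapping filter, and what part this had in the spread of these tiles was not tested.

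The widest spread of all was between the sexes. The tile at chr6:124639001-124640000, 2916 bp from the complement gene C1s2, had an SD of 28.9 points in B and 35.5 points in T cells. Its levels were 89.1% to 96.6% in the 8 female libraries and 21.1% to 49.4% in the 8 male libraries, without overlap. The means were 93.2% ± 2.62 in females and 33.7% ± 8.71 in males (SD over 8 libraries each). The depth per CpG differed too, at 1.05 of the usual in females and 2.68 in males.

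The difference lay in 12 CpGs within 45 bp (positions 124639254 to 124639298), where females read 92.5% with 6.84 calls per CpG in a library and males 21.7% with 25.8. The other 7 CpGs of the tile read 93.2% in females and 91.7% in males, with 9.13 and 8.68 calls per CpG. Without the 12 CpGs the tile had an SD of 3.49 points in B and 4.16 in T cells and 7 CpGs, so that the rule would not have taken it. The 60 bp around them (chr6:124639247-124639306) are shown because the CpGs form a simple repeat of 4 bp.
C1s2 stretch: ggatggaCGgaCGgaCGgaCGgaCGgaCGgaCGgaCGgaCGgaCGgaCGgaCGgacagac
The 46 bp from the first to the last of these CpGs occurred exactly on chromosome 6 once, on chromosome 3 in 2 places, on chromosome 17 in 1 place, and on chromosome Y in 0. After changing every C to T, as bisulphite treatment does to unmethylated cytosines, 36 matches were found on the Y chromosome and 19 to 91 on each of the others. In the neighbouring tiles males and females overlapped, for example at 2 kb downstream with 73.2% and 71.7%. Extra male reads and low male levels thus occurred at the same 12 CpGs; where the reads came from was not tested.

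**Figure D4:**
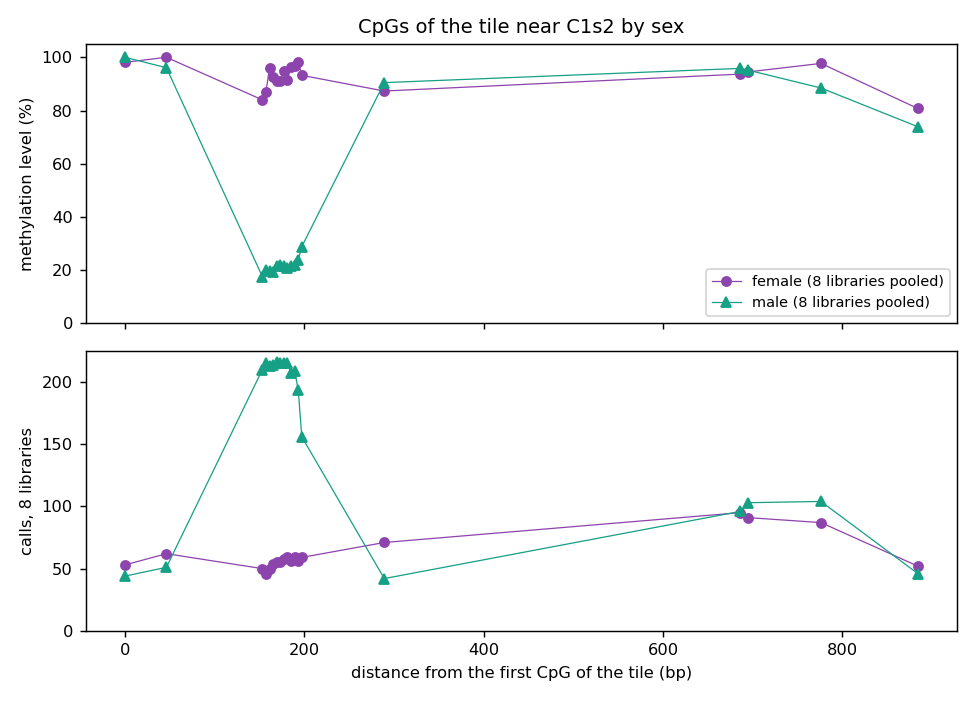
Methylation level (%, top) and number of calls (bottom) at each CpG of the tile near C1s2, by distance in bp from its first CpG, pooled over 8 female (purple circles) and 8 male (green triangles) libraries. The 12 CpGs of the repeat stand apart with low male levels (21.7% on average) and raised male calls (25.8 per CpG in a library, against 6.84 in females), and at the other 7 CpGs the lines of both sexes run together.

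Over the set, no tile was called between male and female libraries at an adjusted p under 0.05 and 20 points (quasi-binomial model on the calls, adjusted for cell type and assay), and neither was any of the eligible tiles (0%). At an unadjusted p under 0.05 there were 7 of the 151 (4.64%) and 27,007 eligible tiles (2.9%), and the smallest adjusted p of all was 0.0667, at the C1s2 tile. Between BS and oxBS libraries of both cell types together 0 tiles were called in the set and in the whole (0%), with 32 (21.2%) and 65,358 (7.01%) at an unadjusted p under 0.05, and the smallest adjusted p in the set was 0.48. Both contrasts are part of the spread that chose the tiles.

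The difference between B and T cells was not used by the rule. It was called (adjusted p under 0.05 in the quasi-binomial model, which held terms for sex and assay, Benjamini-Hochberg over all eligible tiles, and at least 20 points) in 16 of the 151 tiles (10.6%), compared with 3.04% of all eligible tiles. With the adjusted p alone it was 17 of 151 (11.3%), compared with 9.69% of eligible tiles, a share near the background. Of the 16, 11 were more methylated in B cells and 5 in T cells. With the BS libraries alone or the oxBS libraries alone the same model called 0 of the 151, compared with 1.22% and 2.13% of eligible tiles. At an unadjusted p under 0.05 (quasi-binomial) there were then 27 of the 151 with BS and 40 with oxBS, compared with 9.76% and 12.9% of eligible tiles. As both arms were split from the same DNA, a BS and an oxBS library can be the same sample, while the model takes the 16 libraries as independent, so its p-values can be too small. With 1 assay a DNA split between the arms enters once, but fewer libraries enter too, and these reasons for the lost calls cannot be told apart. Without female B BS 12, female B oxBS 9, male B BS 4 and male B oxBS 2, which lay opposite to the order of the assays in T cells and were left out after seeing the data, 17 of the 151 were called, compared with 2.98% of eligible tiles.

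The largest difference was near Ccr7, the chemokine receptor that guides naive T cells into lymph nodes. At chr11:99167001-99168000, 11,924 bp from the gene, the T cell libraries read 86.5, 88.2, 90.3 and 87% in BS and 65.4, 67.4, 59.1 and 63% in oxBS, while the B cell libraries ran from 18.6% to 54.8% (median 34.8%). No B cell library reached the lowest T cell library, and B minus T was -40.3 points (quasi-binomial adjusted p = 0.000589). The adjacent tile, at chr11:99166001-99167000, was also doubly variable but had B cell levels of 35.6% to 74.8% and T cell levels of 21.4% to 61.3%, with B minus T at 10 points (quasi-binomial adjusted p = 0.445). Levels of the cell types overlapped in this tile.

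The other named tiles higher in T cells were in introns of Cyth1, an exchange factor for ARF GTPases (chr11:118197001-118198000, B minus T -32.7 points, quasi-binomial adjusted p = 0.00491), and Sesn1, a stress-induced sestrin (chr10:41891001-41892000, -25.6 points, quasi-binomial adjusted p = 0.0333), and in an exon of Tnrc6b, a component of microRNA silencing (chr15:80784001-80785000, -28.4 points, quasi-binomial adjusted p = 0.0149). In the Cyth1 tile B cell levels were 20.3% to 57.1% and T cell levels 51.2% to 86.3%, with an overlap between the lowest T cell and the highest B cell libraries. A further tile of Cyth1, 2 kb before it at chr11:118195001-118196000, was doubly variable too, with T cell BS at 89.4, 84.7, 90.4 and 82.5% and oxBS at 66.7, 65.4, 56.4 and 57.9%. The T cell assays did not overlap there either.

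Among the tiles higher in B cells, the ERV-12 tile near Gimap9, a GTPase gene of the GIMAP family of lymphocytes (chr6:48674001-48675000, 1129 bp from the gene), had B cell levels of 54% to 88.4% and T cell levels of 17.9% to 59.4%, with B minus T at 38.9 points (quasi-binomial adjusted p = 0.00251). The intronic tile of Sbk1, a serine/threonine kinase gene (chr7:126284001-126285000), had B cell levels of 47.8% to 83.7% and T cell levels of 35, 39.2, 40.4 and 38.9% in BS and 17.8, 8, 9.1 and 18.9% in oxBS. Its difference was 38.6 points (quasi-binomial adjusted p = 0.00329), and the highest T cell library lay below the lowest B cell library. The tile in introns of Ubac2 and of Gpr183, which encodes an oxysterol receptor that positions lymphocytes (chr14:121959001-121960000), differed by 34.6 points (quasi-binomial adjusted p = 0.00479), and an exonic tile of Hnrnpc, a pre-mRNA binding protein gene (chr14:52098001-52099000), by 33.8 points (quasi-binomial adjusted p = 0.00561). At IAP-Mbnl1, in an intron of a splicing factor gene, the difference was 31.5 points (quasi-binomial adjusted p = 0.0235), and this tile was the only cVM-IAP tile of the set called between the cell types. It is also the only one without an IAP LTR match and had 23.2% of its bases in repeats, so that most of the tile is sequence outside repeats and its value need not be that of the element.

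At the other end, IAP-Rims2, IAP-Rnf157, IAP-Marveld2 and IAP-Eps8l1 had B minus T values of -7.26, 17.7, -3.03 and 11.2 points, none of them called (quasi-binomial adjusted p = 0.237 or more). Adjacent doubly variable tiles occurred in 2 places, 1 at Ccr7 and 1 in exons of Srrm2, a gene of a splicing co-activator (chr17:23806001-23808000). At Srrm2 the differences between B and T cells were 24.1 points (quasi-binomial adjusted p = 0.0181) and 21.4 points (quasi-binomial adjusted p = 0.0666), and female B BS 10 was the highest B cell library in both, at 96% and 91.8%.

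The neighbours of a doubly variable tile had a much smaller spread, with a median SD at 1 kb of 3.97 points in B and 5.52 points in T cells. The order of the libraries was partly shared. The rule did not use tiles next to a doubly variable tile that were not in the set themselves, although they come from the same libraries and can share fragments with it. Over 187 such pairs at 1 kb the median correlation of the 8 library levels was 0.281 in B cells and 0.557 in T cells, compared with 0.0286 and 0.0978 over all adjacent eligible tiles and with 0.127 and 0.262 over adjacent tiles both at 30% to 70%. At 10 kb, over 153 pairs, the medians were 0.126 and 0.442. After the mean of each assay was taken away, the T cell median at 1 kb was 0.107 and at 2 kb -0.022, whereas the B cell median at 1 kb was 0.349. Little correlation was thus left in T cells once the assay means were taken away, whereas in B cells, with the assays as labelled, it was not lower. The B cell assay means rest on labels that were not tested, so the 2 cell types cannot be compared on this point.

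The neighbours at 1 kb of the 12 listed tiles correlated with them by 0.435 in B cells and 0.684 in T cells (medians of 9 pairs), and the neighbours at 2 kb by 0.107 and 0.0665 (9 pairs). For the other 139 tiles the B cell medians were 0.259 at 1 kb (178 pairs) and 0.167 at 2 kb (174 pairs), and the T cell medians 0.547 and 0.452. Less the assay means, the medians at 2 kb were 0.296 in B and 0.0472 in T cells for the listed tiles and 0.175 and -0.022 for the others. The T cell difference at 2 kb between listed and other tiles was thus seen only with the assay means left in. At 1 kb, less the assay means, the T cell medians were 0.388 for the listed tiles (9 pairs) and 0.0813 for the others. The B cell medians there were 0.437 and 0.328. Each value rests on 8 libraries, and tiles near each other share fragments and depth, so the values are given as description.

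**Figure D5:**
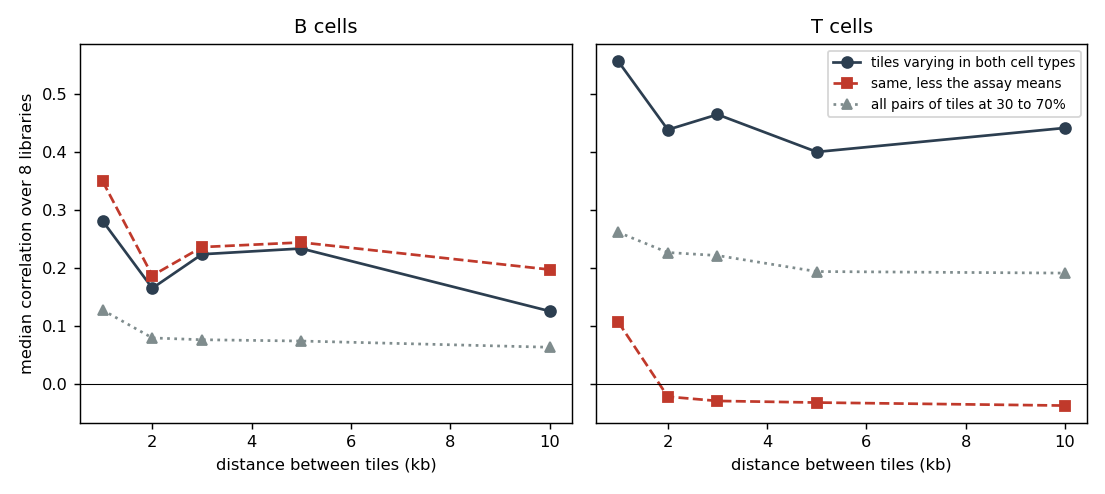
Median correlation over 8 libraries between a doubly variable tile and tiles outside the set at 1, 2, 3, 5 and 10 kb, in B cells (left) and T cells (right); dark circles are the levels as measured, red squares the levels less the mean of each assay, and grey triangles all pairs of tiles at 30% to 70%. In T cells the dark line stays between 0.4 and 0.557 and the red line drops from 0.107 to below 0; in B cells both lines lie between 0.126 and 0.349.

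Of the 4 tiles with a gene start, those of Stau2, a double-stranded RNA binding protein (chr1:16520001-16521000, start at 16520112), and of Gm22063, a small nuclear RNA gene inside Cbfb (chr8:105172001-105173000, start at 105172496), joined Eps8l1 and Gm43305. The Stau2 tile lay between 21.2% and 57.4% in B and between 21.7% and 61.6% in T cells, and the Gm22063 tile between 18.9% and 64.6% and between 17.4% and 55.6%. In neither was there a separation by sex or assay.

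The gene lists examined hold few eligible tiles for a set that makes up 0.0162% of all, so that counts of 0 or 1 say little about any list. Imprinted genes had 0 doubly variable tiles among 1619 eligible tiles within 2 kb, the DNA methylation machinery 0 of 570, B cell markers 0 of 472, and the CD8 T cell, NK cell and erythroid markers 0 of 24, 6 and 19. T cell markers had 1 of 250 (0.4%), 1780 bp from Cd4, the co-receptor by which the T cells were sorted (chr6:124890001-124891000), with levels of 49.1% to 88.2% in B and 35% to 85.7% in T cells. Myeloid markers had 1 of 100 (1%), over an exon of Csf1r, the receptor of a macrophage growth factor (chr18:61105001-61106000), at 43.8% to 90% in B and 52.3% to 89.6% in T cells. In the Csf1r tile female B oxBS 9 and female T oxBS 14 were the highest libraries of their cell types.

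Short motifs of lymphocyte transcription factors were counted on both strands in the 139 tiles away from listed elements. RUNX (TGTGGTT) was present in 19.4% of these tiles, compared with 21.6% of eligible tiles, ETS (AGGAAGT) in 28.8%, compared with 22.5%, E-box (CAGGTG) in 56.8%, compared with 54.2%, TCF/LEF (CTTTGAA) in 21.6%, compared with 21.2%, KLF (CCACACCC) in 7.91%, compared with 8.09% and the NF-kB consensus in 0.719%, compared with 0.254%. A further 9 tiles, at ERV-12 and in or near Stim1, St6gal1, Ddx58, Hnrnpf and other genes, shared sequence with each other. The pairs that aligned did so over only 155 to 208 bp, at 86% to 94% identity. How often this sequence occurs in other eligible tiles was not counted. Groups of 3 were formed by the tiles of Nsun7, Fam169b and Rnft1 and by those of Erbb4, Acvr2a and Crisp1. These tiles are named by the gene around them or the nearest protein-coding gene.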

How the data were processed

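The 16 libraries were whole genome BS or oxBS sequencing of sorted B and T cells. The authors trimmed reads with Trim Galore 0.6.0, aligned them to mm10 (GRCm38) with Bismark 0.20.0, used SAMtools 1.3.1, kept mapping qualities of 10 or more and deposited, for each CpG with both strands combined, counts of methylated and unmethylated calls, with no further normalisation. Columns of per-sample values left unused numbered 0. Calls were summed here over CpGs of the reference in 1 kb tiles of chromosomes 1 to 19, and a tile was eligible with 8 or more CpGs and 30 or more calls in each of the 16 libraries. Depth was 5.83 to 8.07 calls per autosomal CpG. Calls are not independent molecules, so the binomial SD covers counting error only.

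B and T cells, sexes and assays were compared per tile by logistic regression of methylated against unmethylated calls with quasi-binomial variance, the dispersion held at 1 or more, a t statistic on 12 residual degrees of freedom and Benjamini-Hochberg adjustment over 932,533 tiles. BS and oxBS libraries of the same DNA were taken as independent, because their pairing is not named. To be called, a tile needed both an adjusted p under 0.05 and means over libraries 20 or more points apart. The model for B against T cells was tested on simulated data, and the tile rule was not. It called 48 of 100 tiles with a true difference of 20 points and 100 of 100 with 40 points. Of 4800 tiles without a difference it called 0. The 5000 simulated tiles were drawn from all eligible tiles, with independent libraries and a spread not set to that of the doubly variable tiles. Adjustment was over 5000 tiles rather than 932,533, so these counts do not carry over to the doubly variable tiles. Other quantities are descriptions. The doubly variable tiles and the gene lists were chosen with earlier results of these data known. The tiles named in the text were the 10 with the largest mean SD, up to 4 of each class of listed element, those with a gene start, the 4 most different in each direction between B and T cells, adjacent tiles, tiles within 2 kb of a listed gene, and the 3 on each side of the limit. Tiles named as examples outside this rule were chosen after their values were seen. The alternatives were other limits of SD, calls and CpGs, other levels, models and covariates, single assays, other tile starts and leaving out each library. Annotation was GENCODE vM21, sequence was GRCm38, and copies were found with BLAST 2.17.0. Python 3.11.15, NumPy 2.4.6, SciPy 1.17.1, pandas 2.3.3 and Matplotlib 3.10.9 were used. Tiles on the sex chromosomes were not analysed here.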

Additional observations from a re-analysis of the deposited data

Results flagged for a closer look

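Of 62 sets of 8 libraries of 1 cell type at the named tiles, 3 held a library whose gap to its nearest neighbour was, as a share of the whole range, above Dixon's critical value for 8 samples at 95%. Chance flags about 1 group in 20, and the tiles were selected for a wide spread, so 3 of 62 is a description. At the ERV-Cep85 tile at chr4:134160001-134161000, in B cells, female B BS 10 stood at 81.9% with the next library at 45.3%, a gap of 0.606 of the range. At the Eps8l1 tile, in T cells, male T BS 5 was low at 30.2% with the next library at 55.1%, a gap of 0.551 of the range. At the Gm43305 tile, in T cells, male T oxBS 6 was low at 25.3% with the next library at 51.8%, a gap of 0.55 of the range. The depth per CpG of these tiles was 0.783, 0.333 and 0.455 of the usual, and each has at least 15 other places in the reference at 95% identity over 300 bp; the part of either in these values was not tested.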

How the results depend on the processing

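Of 49 alternatives, 23 kept the value within 1.5 times a count or within the spread over left-out libraries. The set of 151 tiles became 989 at an SD limit of 10 points and 14 at 15, 34 with 60 calls in each library and 82 with 12 CpGs. With 2 alternatives chosen after seeing the data it became 281 without female B BS 12, female B oxBS 9, male B BS 4 and male B oxBS 2, and 71 with the mean of the same assay taken away. Leaving out 1 library gave 151 to 181 tiles, of which 117 to 137 were among the 151. Only 38 of the 151 were kept with means of CpG fractions, 35 with BS and 29 with oxBS libraries alone, although 140, 190 and 200 tiles then passed, and 44 were kept after taking away the assay mean. Tiles at cVM-IAPs or tsVM-IAPs numbered 18 at 10 points, 1 at 15 points and 6 to 10 without 1 library. Tiles called between B and T cells numbered 8 at 30 points (1.54% of all eligible tiles were called), 4 of 34 with 60 calls (3.13%), 0 with BS (1.22%) and 0 with oxBS libraries alone (2.13%), where fewer libraries enter and a DNA split between the arms enters once, and 13 to 17 without 1 library (2.98% to 3.11%). The ratio of SD to binomial SD was 1.479, 1.264 and 3.071 in B cells and 1.609, 1.326 and 3.106 in T cells with calls together over a read length, over 300 bp and with 60 calls, and 2.308 to 2.458 in B and 2.393 to 2.539 in T cells without 1 library. The neighbour correlation in B cells was 0.1651 at 2 kb and 0.1256 at 10 kb, and 0.2278 to 0.3487 without 1 library; in T cells it was 0.4385, 0.4648, 0.4002 and 0.4416 at 2, 3, 5 and 10 kb, 0.6048 less the sex means, 0.107 less the assay means and 0.5756 to 0.6162 without 1 library. The values less the assay means were also chosen after seeing the data, as was leaving out the 16 tiles with another place in the reference at 95% identity, which left 135. Apart from what the settings themselves remove, the causes were not tested. No paired analysis was possible because the labels do not say which BS and oxBS libraries were split from the same DNA, and the groups share no replicate numbers. With 30 to 60 calls in a library, binomial error alone is several points, and few tiles of this set pass at higher depth.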
